A study of Homo sapiens with 4 samples.

Results

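The 29 genes described here encode the machinery of the lysosome and of autophagy, and were taken by gene symbol from a listed set of lysosomal enzymes and membrane proteins, proton pump subunits, autophagy factors and the regulators TFEB and TFE3. All 29 were found among the 26364 symbols of the count tables. They were divided into a lysosome arm of 18 genes, an autophagy arm of 9 genes and 2 regulators. RNA was measured in the human lung cancer cell line NCI-H460 (non-small cell) in 4 groups of 1 library each. In the DZNep 4 Gy group, cells received 4 Gy of gamma radiation and then 2 uM 3-deazaneplanocin A (DZNep) for 48 h. The DZNep 0 Gy group had the drug without radiation, the DMSO 4 Gy group had radiation followed by the solvent DMSO, and the DMSO 0 Gy group had DMSO alone. DZNep inhibits S-adenosylhomocysteine hydrolase and is used to lower histone methylation by EZH2. The study asked which genes differ with the drug and with radiation.

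Lysosomes are acidic organelles in which hydrolases break down proteins, glycans and lipids. A vacuolar proton pump acidifies them, and glycosylated membrane proteins line and protect them. In macroautophagy, a membrane sac forms around cytoplasm, closes into an autophagosome and fuses with a lysosome, so the 2 arms act in sequence. TFEB and TFE3 are related transcription factors that bind a short E-box-type sequence in the promoters of many lysosomal genes when nutrients are scarce or lysosomes are stressed. These factors are controlled largely by phosphorylation and by their place in the cell, which RNA levels do not measure.

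The sequence bound by these factors is shown for the members whose promoters hold it, since it was found in the lysosome arm and not in the autophagy promoters matched. Promoter windows of 300 bases, from 250 before to 50 after the annotated start, came from RefSeq on GRCh38.p14 and were matched by symbol to 23 of the 29 genes. The members with no entry were LAMP2, CTSB, HEXA, PSAP, ATP6V1H and ATP6V1A. The motifs searched were CACGTG, the E-box core, and TCACGTGA, here called the extended E-box, which contains that core. Each is its own reverse complement, so a match stands on both strands. The extended E-box was present in 4 of 23 members (17.4%), against 0.98% of 35116 promoters in the table and 1.88% of the 9737 promoters of tested genes. All 4 belonged to the lysosome arm, where 12 promoters were matched. No extended E-box and no E-box core was found in the 9 autophagy promoters or in those of the 2 regulators. For each member only 1 window was searched, the first listed for its symbol, and other starts of these genes were not searched. The E-box core without the extended E-box was in the promoters of CTSD and NEU1. In all, 6 of 23 members (26.1%) held the core, against 7.26% of all promoters and 10.1% of those of tested genes. A match describes the letters in the window and does not show that a factor binds there.

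The 4 windows below run 5′ to 3′ from 100 bases before the annotated start to 19 bases after it, with each extended E-box in capitals. They lie at chr13:113297139-113297258 (plus strand) for LAMP1, chr19:7522524-7522643 (plus strand) for MCOLN1, chr20:45891235-45891354 (plus strand) for CTSA and chr16:67481138-67481257 (minus strand) for ATP6V0D1, all on GRCh38.p14. LAMP1 and MCOLN1 hold 2 extended E-boxes each, and CTSA and ATP6V0D1 hold 1 each.
LAMP1: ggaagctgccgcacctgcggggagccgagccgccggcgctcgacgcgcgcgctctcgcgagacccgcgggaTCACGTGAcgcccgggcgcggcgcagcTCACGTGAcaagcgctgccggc
MCOLN1: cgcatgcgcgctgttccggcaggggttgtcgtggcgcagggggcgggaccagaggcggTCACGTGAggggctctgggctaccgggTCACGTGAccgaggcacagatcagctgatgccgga
CTSA: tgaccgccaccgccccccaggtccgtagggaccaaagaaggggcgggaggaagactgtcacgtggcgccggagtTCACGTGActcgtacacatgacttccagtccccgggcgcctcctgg
ATP6V0D1: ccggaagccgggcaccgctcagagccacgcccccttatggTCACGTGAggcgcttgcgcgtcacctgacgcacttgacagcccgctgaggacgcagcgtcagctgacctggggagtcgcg

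The tables hold raw counts, with totals of 128255695 for DZNep 0 Gy, 116234177 for DZNep 4 Gy, 136594350 for DMSO 0 Gy and 112461380 for DMSO 4 Gy. Levels below are CPM, counts scaled by library size, with TMM, a method that aligns the bulk of genes between libraries. All 29 members were among the 13378 genes tested, which had 1 CPM or more in at least 2 libraries. CDKN1A, a p53 target that marks the radiation response, stood at 1307 CPM in DZNep and 1296 CPM in DMSO after 4 Gy, against 251 and 201 CPM without it. Of the epithelial markers, EPCAM and CDH1 were under 1 CPM in every library. The summed level of the 5 epithelial markers, with KRT8 and KRT18 the highest and KRT19 at 146 to 247 CPM, was 3885 and 4296 CPM in DZNep and 1496 and 1764 CPM in DMSO. The 4 leukocyte markers summed to 7.64 to 10.2 CPM, mostly CD14, the 3 fibroblast markers to 8.98 to 19.4 CPM and the 3 endothelial markers to 0.0144 to 0.703 CPM. The part of these differences in the results below was not tested.

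The members' levels were concentrated in a few genes, most of them for soluble lysosomal proteins. Per kilobase of exon, the most abundant member was CTSL, the cysteine protease cathepsin L, with a mean of 557 CPM per kb over the 4 libraries. It was followed by PSAP, the precursor of the saposins that present sphingolipids to hydrolases, with 281 CPM per kb. SQSTM1, the autophagy receptor p62, had 219 CPM per kb, and CTSA, a carboxypeptidase that also stabilises the sialidase NEU1, had 183 CPM per kb. The aspartic protease CTSD came next with 111 CPM per kb. At the low end were GABARAPL1, an ATG8-family protein that coats autophagosomes, with 3.10 CPM per kb, HEXA, the alpha subunit of beta-hexosaminidase, with 2.99 CPM per kb, and TFEB with 2.92 CPM per kb. The ranges of these last 3 genes over the libraries overlapped. Of the 2 regulators, TFE3 was the more abundant, at 48.2 CPM per kb. Every member reached 10 CPM in at least 1 library.

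**Figure D1:**
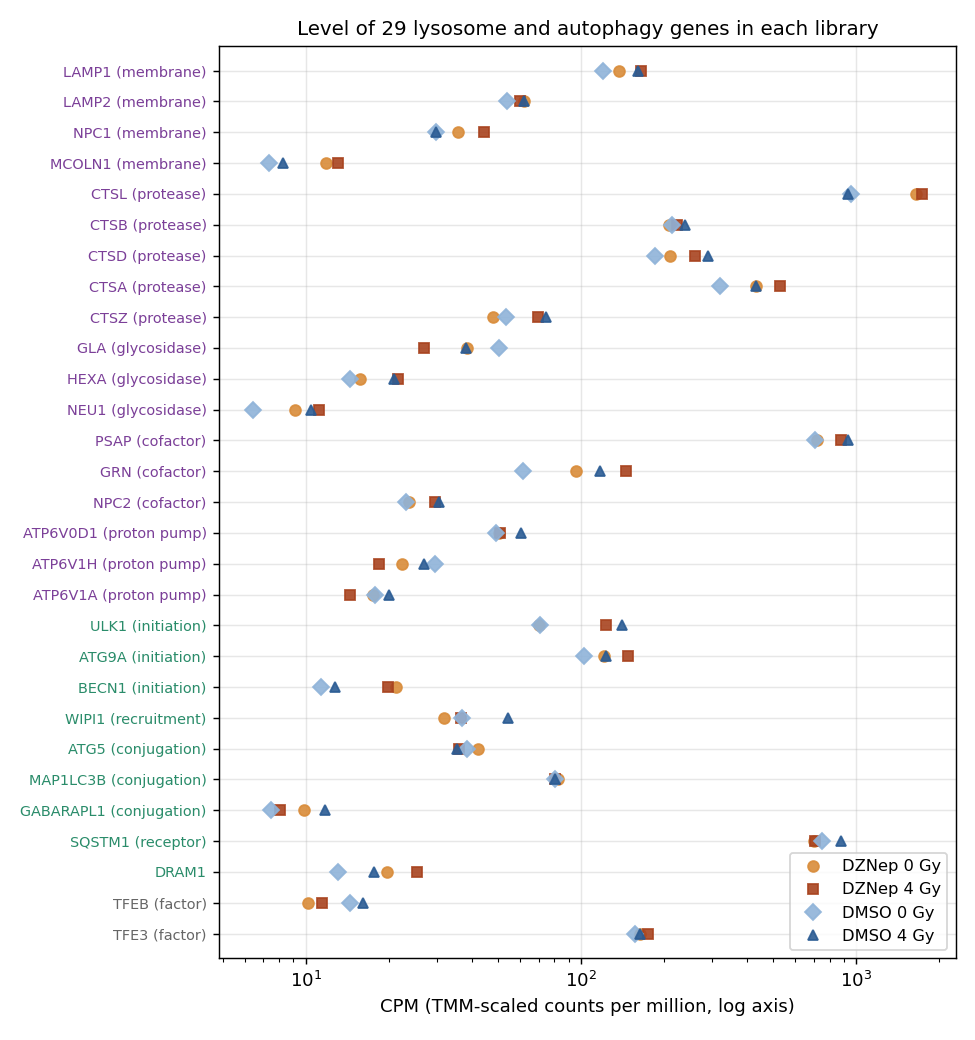
Level of each of the 29 genes in each library, in TMM-scaled CPM on a log axis, 1 marker per library and 1 row per gene, where markers can overlie each other. CTSL lies at 1651 and 1733 CPM in the DZNep libraries, clear of 956 and 932 CPM in the DMSO libraries, while the ULK1 markers pair by dose.

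Summed over its 18 genes, the lysosome arm came to 3790 and 4290 CPM in the DZNep libraries (0 and 4 Gy), against 2898 and 3486 CPM in the DMSO libraries at the same doses. Much of that difference was CTSL. Without CTSL the arm summed to 2139 and 2557 CPM in DZNep and to 1942 and 2554 CPM in DMSO. The autophagy arm summed to 1103 and 1187 CPM in DZNep and to 1110 and 1354 CPM in DMSO. A sum of this kind is carried by its most abundant genes, SQSTM1 in the autophagy arm.

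With DZNep, 5 of the 29 genes rose and none fell. The 5 were CTSL, BECN1, MCOLN1, DRAM1 and GRN, which act at different points: a protease, an autophagy initiator, an ion channel, a lysosomal membrane protein and a lysosomal cofactor. The other 24 did not pass the test. The 5 rises are 17.2% of the members, beside 10.8% of the 13378 tested genes called as rises and 12.3% called as falls. Among the 8502 tested genes that reached 10 CPM in a library, as all members did, 12.3% were called as rises and 13% as falls. The test was edgeR's quasi-likelihood test of drug and dose as additive factors over all 4 libraries, with Benjamini-Hochberg adjustment over all tested genes at 0.05. With 1 library per group its p-values describe only how these 4 libraries vary, and the labels do not say that they are separate cultures. Without dose in the model CTSL alone of the 5 passed, and without the filter on low counts GRN and DRAM1 missed the threshold, with adjusted p-values of 0.0794 and 0.0631. At an unadjusted p under 0.05, 4 members were lower (GLA, ATP6V1H, TFEB and WIPI1). DESeq2 called 0 falls, and edgeR with a 10 CPM filter called GLA and ATP6V1H as falls and NPC1 as a rise. Over all genes that filter gave 1220 rises and 1221 falls of 7997.

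Among the hydrolases, CTSL had 1651 and 1733 CPM in the DZNep libraries (0 and 4 Gy) and 956 and 932 CPM in the DMSO libraries. Both DZNep libraries lay above both DMSO libraries, by a fitted 1.79-fold (log2 0.84, SE 0.13, edgeR adjusted p = 0.000647). How many of all tested genes have groups that do not overlap was not counted, here or for the genes below. CTSA stood at 432 and 528 CPM in DZNep and at 320 and 432 CPM in DMSO, so that DZNep 0 Gy and DMSO 4 Gy had nearly the same level. Its log2 fold change of 0.36 (SE 0.14) did not pass the test, with an edgeR adjusted p of 0.0769. GLA, the alpha-galactosidase A that is missing in Fabry disease, had 38.5 and 26.9 CPM in DZNep and 50.5 and 38.1 CPM in DMSO. At each dose the DZNep library was the lower, and the log2 fold change of -0.45 (SE 0.16) also missed the threshold, with an edgeR adjusted p of 0.0626. The other cathepsins and glycosidases had log2 fold changes of -0.13 (CTSZ), -0.07 (CTSB), 0.01 (CTSD), 0.08 (HEXA) and 0.30 (NEU1), with adjusted p-values of 0.313 to 0.968.

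Among the soluble lysosomal proteins outside the hydrolases, GRN is progranulin, a secreted and lysosomal protein that is cut into granulins. GRN had 95.5 and 146 CPM in the DZNep libraries (0 and 4 Gy) and 61.3 and 118 CPM in the DMSO libraries. DZNep 0 Gy lay below DMSO 4 Gy, but within each dose the DZNep library was the higher. The fitted rise was 1.39-fold (log2 0.47, SE 0.16, edgeR adjusted p = 0.0462), close to the threshold. PSAP and NPC2, a soluble protein that hands cholesterol to NPC1, had log2 fold changes of -0.03 and -0.00.

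Of the membrane proteins, MCOLN1, the TRPML1 channel that releases calcium from lysosomes, had 11.8 and 13.0 CPM in the DZNep libraries and 7.36 and 8.22 CPM in the DMSO libraries. The groups did not overlap, and the rise was 1.59-fold (log2 0.67, SE 0.19, edgeR adjusted p = 0.0233). NPC1, the transporter that moves cholesterol out of the lysosome, had 35.7 and 44.4 CPM in DZNep and 29.6 and 29.8 CPM in DMSO. Its log2 fold change of 0.42 (SE 0.17) did not pass, with an edgeR adjusted p of 0.0860. LAMP1 and LAMP2, the main glycoproteins of the lysosomal membrane, had log2 fold changes of 0.11 and 0.07. The 3 proton pump subunits among the members lay below 0, with ATP6V1H at -0.47 (SE 0.17, edgeR adjusted p = 0.0595), ATP6V1A at -0.24 and ATP6V0D1 at -0.12. The 13 other pump subunits, on the wider list described below, had a median of 0.11. Of those 13, 8 lay above 0, 2 were called as rises and 0 as falls. ATP6V1H had 22.3 and 18.4 CPM in DZNep and 29.5 and 26.8 CPM in DMSO, with no overlap, yet it missed the threshold.

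In the autophagy arm, 2 of 9 genes rose with DZNep (22.2%), beside 10.8% of all tested genes and 12.3% of those at 10 CPM or more. In an arm of 9 genes that share rests on few calls. BECN1, Beclin 1, a scaffold of the lipid kinase complex that starts autophagosome formation, had 21.3 and 19.8 CPM in the DZNep libraries (0 and 4 Gy) and 11.3 and 12.8 CPM in the DMSO libraries. Every DZNep value exceeded every DMSO value, and the rise was 1.71-fold (log2 0.77, SE 0.18, edgeR adjusted p = 0.00928). DRAM1, a p53-induced membrane protein of the lysosome, had 19.6 and 25.2 CPM in DZNep and 13.1 and 17.6 CPM in DMSO. Its groups did not overlap either, and the rise was 1.46-fold (log2 0.55, SE 0.17, edgeR adjusted p = 0.0362). BECN1 shares 23.5% of its exon bases with CNTD1 on the opposite strand, and whether the counting used strand is not given in the sources used here. CNTD1 itself had 209 and 110 counts in DZNep and 152 and 147 in DMSO, against 2751, 2255, 1571 and 1434 counts for BECN1 in the same order.

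The remaining autophagy genes did not pass the test. WIPI1, which binds phosphatidylinositol 3-phosphate on the forming membrane, was the lowest at -0.40 (SE 0.17, edgeR adjusted p = 0.103), with 31.7 and 36.5 CPM in DZNep and 37.0 and 54.3 CPM in DMSO. SQSTM1 had 705 and 710 CPM in DZNep and 749 and 878 CPM in DMSO (log2 -0.20, SE 0.13). MAP1LC3B, LC3B, the usual marker of autophagosomes, had 82.4 and 80.1 CPM in DZNep and 80.3 and 80.1 CPM in DMSO, so that all 4 libraries were nearly level. ATG9A, a lipid scramblase of the forming membrane, ATG5, part of the LC3 conjugation machinery, ULK1, the initiating kinase, and GABARAPL1 had log2 fold changes of 0.25, 0.08, -0.10 and -0.08. Of the regulators, TFEB had 10.1 and 11.4 CPM in DZNep and 14.5 and 16.1 CPM in DMSO. Both DZNep libraries were the lower for TFEB, but its log2 fold change of -0.50 (SE 0.18) missed the threshold with an edgeR adjusted p of 0.0628. TFE3 had a log2 fold change of 0.08.

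Over the 29 genes the median log2 DZNep effect was 0.02, with 16 above 0, beside a median of -0.02 over all tested genes, of which 48.9% were above 0. The 4 genes with an extended E-box had log2 DZNep effects of 0.67 for MCOLN1, 0.36 for CTSA, 0.11 for LAMP1 and -0.12 for ATP6V0D1. Of these, MCOLN1 passed the test. CTSL, BECN1, DRAM1 and GRN rose and hold neither motif in their windows.

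**Figure D2:**
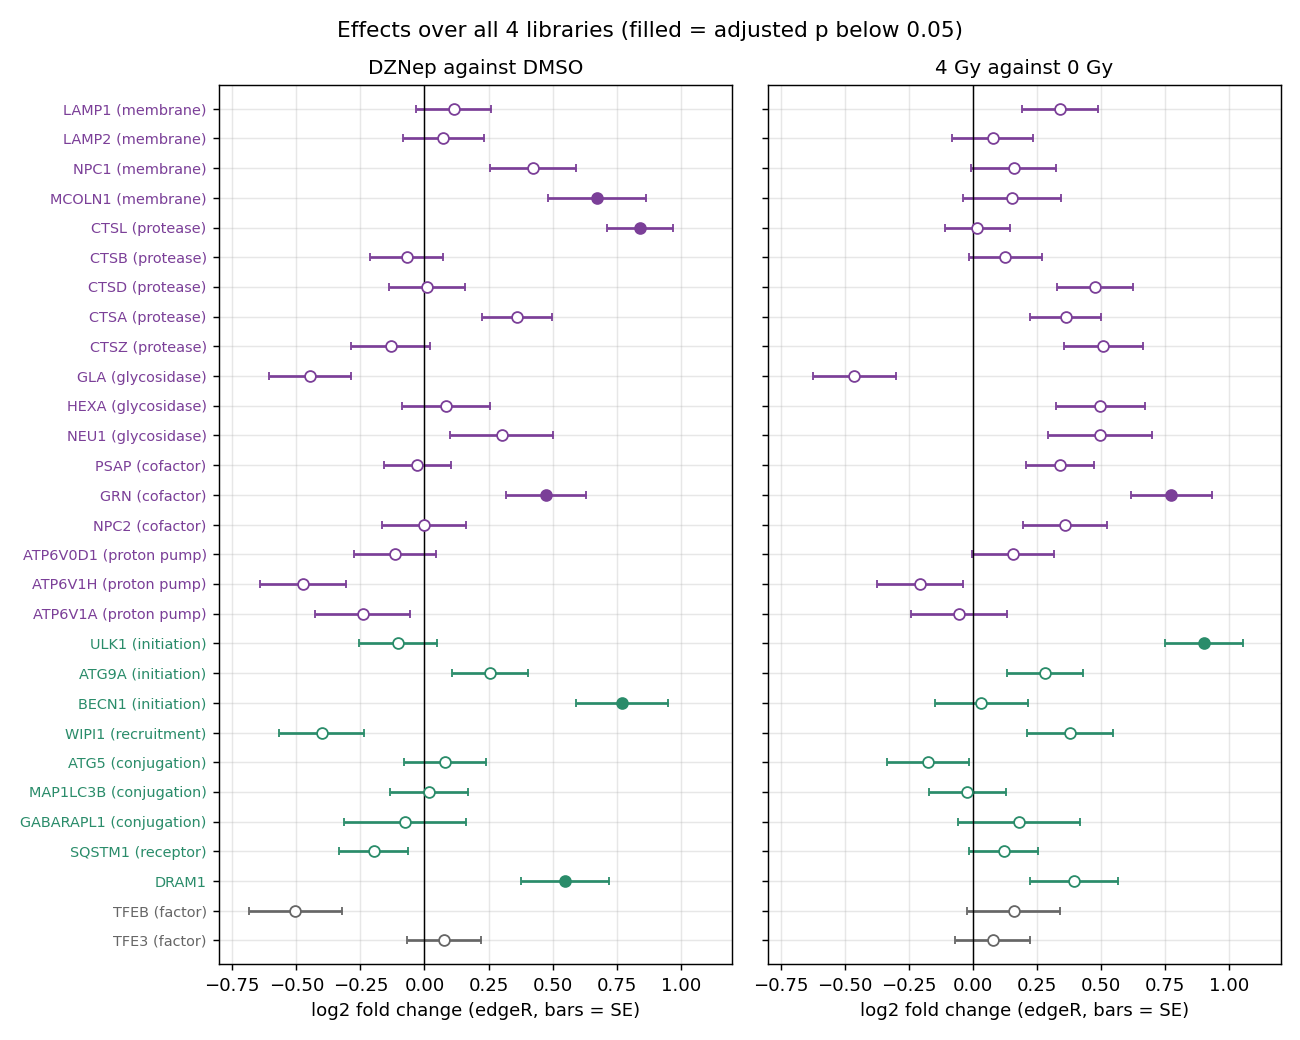
Log2 fold change of each of the 29 genes with DZNep (against DMSO) and with 4 Gy (against 0 Gy) from edgeR's additive model, with bars of 1 SE and filled points for genes past an adjusted p of 0.05. The drug panel has 5 filled points, from GRN at 0.47 to CTSL at 0.84, and the radiation panel has ULK1 at 0.90 and GRN at 0.77.

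With 4 Gy, 2 of the 29 genes rose, none fell and 27 did not pass the test. The 2 were ULK1, the kinase that starts autophagy, and GRN, which also rose with DZNep. They are 6.90% of the members, beside 2.17% of all tested genes called as rises and 0.897% called as falls; among genes that reached 10 CPM, the shares were 2.83% and 1.24%. Most members lay above 0 without passing: 24 of 29 did, with a median of 0.16, beside 50.8% of all tested genes and a median of 0.01. ULK1 had 123 and 141 CPM after 4 Gy (DZNep and DMSO), against 70.4 and 70.8 CPM without radiation. The irradiated libraries were clear of the others at either agent, by a fitted 1.87-fold (log2 0.90, SE 0.15, edgeR adjusted p = 0.0100). GRN had 146 and 118 CPM after 4 Gy (DZNep and DMSO), against 95.5 and 61.3 CPM without radiation, and again the dose groups did not overlap. Its rise was 1.71-fold (log2 0.77, SE 0.16, edgeR adjusted p = 0.0242). Without the filter on low counts GRN missed the threshold at an edgeR adjusted p of 0.0607. In an edgeR model without the drug no gene of the table passed, with 524 genes at an unadjusted p under 0.05. DESeq2, with drug and dose both in its model, called 447 rises and 214 falls, beside 290 and 120 in the edgeR model with both. Among the members GLA alone was lower at an unadjusted p under 0.05, and DESeq2 called 0 falls. A 10 CPM filter in edgeR added CTSD and CTSZ as rises. Over all genes that filter gave 590 rises and 441 falls of 7997.

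Of the 8 hydrolases, 7 lay above 0 with radiation, with a median log2 effect of 0.42, and none passed the test. CTSZ, a cysteine carboxypeptidase, had 69.5 and 74.4 CPM after 4 Gy (DZNep and DMSO) and 47.8 and 53.5 CPM without it, a log2 fold change of 0.51 (SE 0.15, edgeR adjusted p = 0.0878). CTSD had 260 and 290 CPM after 4 Gy and 210 and 186 CPM without it, a log2 fold change of 0.48 (SE 0.15, edgeR adjusted p = 0.0968). In both genes the irradiated libraries were the higher with either agent. NEU1, the sialidase that trims glycans, and HEXA each had a log2 fold change of 0.50, with adjusted p-values of 0.188 and 0.127. GLA was the exception among the hydrolases, with 26.9 and 38.1 CPM after 4 Gy and 38.5 and 50.5 CPM without it, a log2 fold change of -0.46 (SE 0.16, edgeR adjusted p = 0.126). CTSL, the largest rise with DZNep, had a radiation effect of 0.02 (SE 0.13). PSAP and LAMP1 had a log2 fold change of 0.34 each, NPC2 and CTSA of 0.36 each, and WIPI1 and DRAM1 of 0.38 and 0.39. MAP1LC3B stood at -0.02, and TFEB and TFE3 at 0.16 and 0.08.

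Several members followed the dose more than the drug without passing either test. PSAP had 877 and 933 CPM after 4 Gy (DZNep and DMSO), against 723 and 706 CPM without radiation. LAMP1 had 164 and 161 CPM after 4 Gy, against 137 and 120 CPM without it, and NPC2 had 29.5 and 30.4 CPM, against 23.7 and 23.1 CPM. In these 3 genes both irradiated libraries were above both others. The share of all tested genes with that order was not counted. HEXA showed the same order at a low level, with 21.5 and 20.9 CPM after 4 Gy (DZNep and DMSO), against 15.7 and 14.4 CPM without it. CTSB, a cysteine protease, had 222 and 238 CPM after 4 Gy, against 208 and 213 CPM, and TFE3 had 175 and 163 CPM, against 164 and 157 CPM. ATG9A had 148 and 123 CPM after 4 Gy, against 121 and 102 CPM without it, so that its dose groups nearly overlapped. LAMP2 had 59.8 and 62.1 CPM after 4 Gy, against 61.9 and 53.9 CPM, and ATP6V0D1, a subunit of the membrane sector of the pump, had 50.7 and 60.6 CPM, against 50.2 and 49.2 CPM. In LAMP2 and TFE3 the dose groups overlapped and in ATP6V0D1 DMSO 4 Gy stood above the other 3 libraries. Fitted log2 effects of drug and radiation were nearly equal in TFE3 (0.08 and 0.08), LAMP2 (0.07 and 0.08) and ATG9A (0.25 and 0.28). These genes thus did not clearly follow the dose more than the drug. ATG5 was on the other side, with 36.1 and 35.4 CPM after 4 Gy (DZNep and DMSO), against 42.3 and 38.5 CPM without it, a log2 fold change of -0.17 (SE 0.16, edgeR adjusted p = 0.579).

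The members were richer in GC than the genes tested, and GC content moved with the radiation ratios. GC content was that of the longest annotated transcript of each symbol. The members' median was 51.6%, against 48.4% over the 12620 tested genes with a value, and 20 of 29 lay above that median. In DZNep, the median 4 Gy to 0 Gy ratio of all tested genes went with GC quartile, at -0.21, -0.05, 0.09 and 0.20 (log2) in order of rising GC content. The members' medians in the same quartiles were -0.23, 0.11, 0.21 and 0.29. In DMSO the medians of all tested genes were -0.09, -0.02, 0.03 and 0.07, and those of the members were 0.17, 0.41, 0.16 and 0.30. The quartiles held 3, 6, 9 and 11 members, so that their medians rest on few genes. Members' medians were above those of all tested genes in 4 of 4 quartiles in DMSO and in 3 of 4 in DZNep. These differences were not tested. The part of GC content in any 1 gene's value was not tested.

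Set pair by pair, the lysosome arm had higher medians for radiation than for the drug, while the autophagy medians followed no such order. These are log2 ratios between 2 libraries, with no replicate check and no test, and the 5 pairs share libraries. The lysosome and autophagy medians were 0.15 and 0.13 for DZNep against DMSO at 0 Gy, and -0.05 and -0.00 for DZNep against DMSO at 4 Gy. For 4 Gy against 0 Gy they were 0.27 and 0.01 in DZNep, and 0.35 and 0.27 in DMSO. For the combination, DZNep 4 Gy against DMSO 0 Gy, the lysosome median was 0.41 and the autophagy median 0.10. Over all tested genes the medians of the 5 pairs lay between -0.03 and 0.02. The gap between the arms in the combination was 0.31 by the median and -0.00058 by the mean, with ULK1, BECN1 and DRAM1 at 0.80 to 0.94 in an arm of 9 genes.

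**Figure D3:**
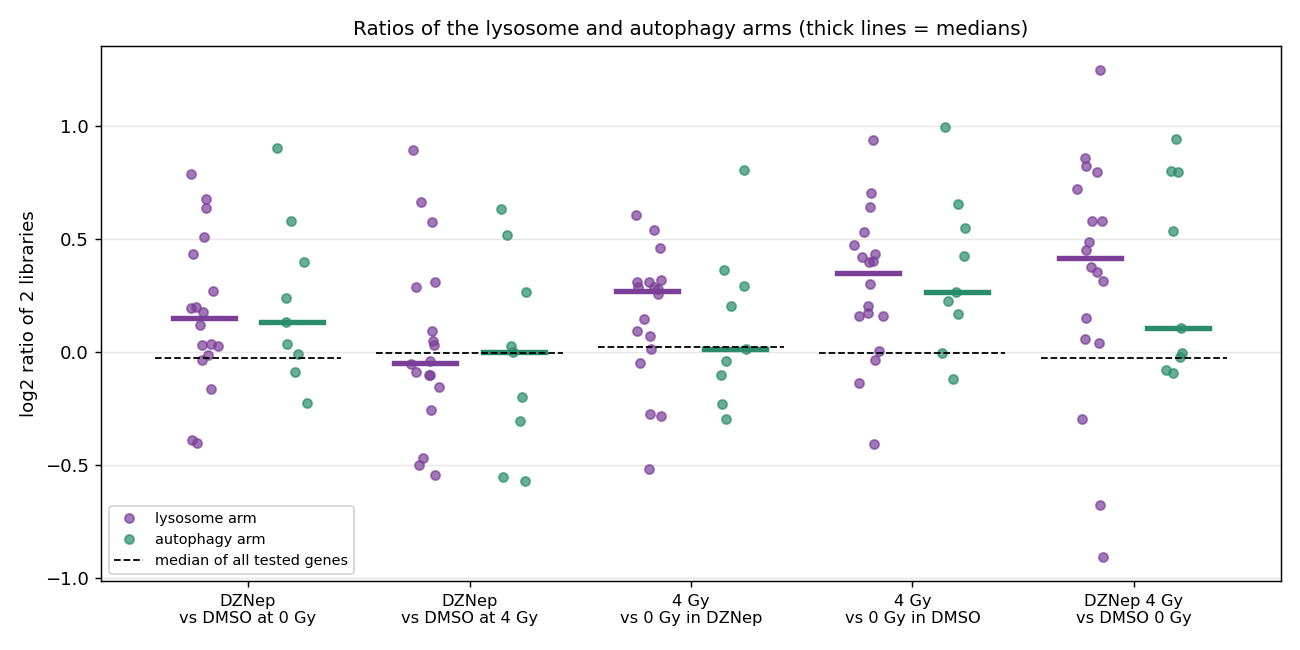
Log2 ratio of each gene in the 5 pairs of libraries, as 1 point per gene for the lysosome arm and the autophagy arm, with a bar at each arm's median. The lysosome median is 0.41 and the autophagy median 0.10 in the combination pair, and the points of the 2 arms overlap in every pair.

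Members were also counted by size of ratio. For DZNep against DMSO at 0 Gy, 4 of 29 were at least 1.5-fold higher and none at least 1.5-fold lower, beside 11.5% and 12.8% of the 8502 genes at 10 CPM or more. At 4 Gy, 3 were higher and none lower, beside 10.9% and 11.4%. For 4 Gy against 0 Gy, 2 were higher and none lower in DZNep, beside 4.92% and 4.06%, and 5 were higher and none lower in DMSO, beside 8.9% and 7.25%. For DZNep 4 Gy against DMSO 0 Gy, 8 were higher and 2 lower, beside 15.1% and 15.8%. Members at least 1.5-fold lower were under the background share in each of the 5 pairs, but these are small counts and the pairs share libraries. On the wider list described below, 89 genes were at 10 CPM or more. Of these, 9 were at least 1.5-fold lower with DZNep at 0 Gy and 9 at 4 Gy. For 4 Gy against 0 Gy, 1 was lower in DZNep and 1 in DMSO, and in the combination 6 were.

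The combination set the widest range. GRN had 146 CPM in DZNep 4 Gy, against 61.3 CPM in DMSO 0 Gy, a log2 ratio of 1.25 with an interval of 1.21 to 1.29. Intervals of ratios are exact conditional binomial 95% intervals and cover counting error only. DRAM1 followed at 0.94, CTSL at 0.86, MCOLN1 at 0.82, BECN1 at 0.80, ULK1 at 0.80, NEU1 at 0.80 and CTSA at 0.72. Of these 8, GRN, DRAM1, MCOLN1, NEU1 and CTSA lay above 0 in all 4 of the other pairs. For ULK1 the drug ratios were -0.01 and -0.20 (0 and 4 Gy) and the radiation ratios 0.81 and 0.995 (DZNep and DMSO). At the other end GLA stood at -0.91, with 26.9 CPM in DZNep 4 Gy and 50.5 CPM in DMSO 0 Gy, followed by ATP6V1H at -0.68 and TFEB at -0.35.

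**Figure D4:**
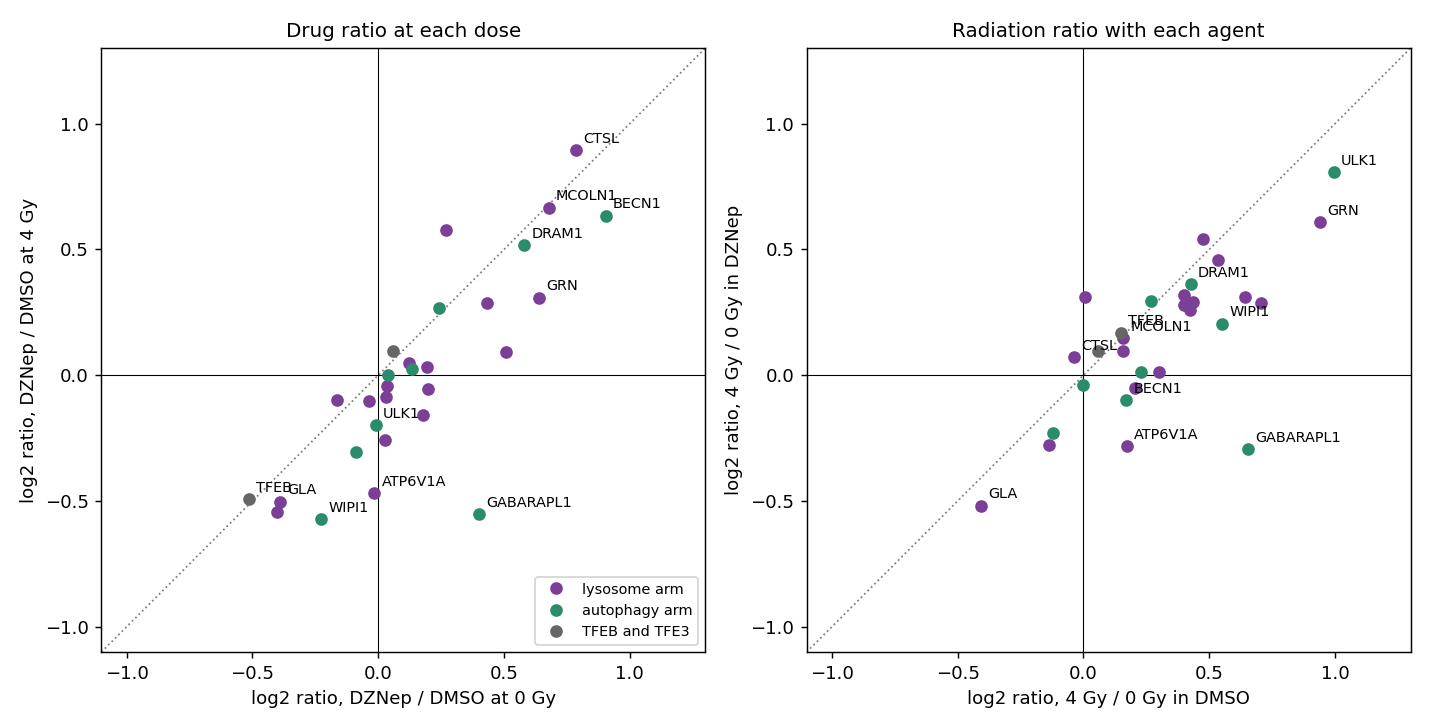
Each point is 1 of the 29 genes; the left panel sets the DZNep to DMSO log2 ratio at 4 Gy against that at 0 Gy, and the right panel the 4 Gy to 0 Gy log2 ratio in DZNep against that in DMSO, with the line of equal ratios. GABARAPL1 lies far from the line in both panels, with drug ratios of -0.55 at 4 Gy and 0.40 at 0 Gy.

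For most members the radiation ratio was smaller in DZNep than in DMSO. The difference between the 2 ratios was below 0 in 23 of 29 genes, with a median of -0.12, beside 49.6% of all tested genes and a median of 0.00. It has no error estimate with 1 library per group, since the additive model takes this same difference as its error. The lowest was GABARAPL1, whose libraries had 8.03 CPM in DZNep 4 Gy and 9.85 CPM in DZNep 0 Gy, against 11.8 CPM in DMSO 4 Gy and 7.46 CPM in DMSO 0 Gy. Its radiation ratio was -0.29 in DZNep (interval -0.42 to -0.17) and 0.66 in DMSO (interval 0.54 to 0.78), a difference of -0.95. ATP6V1A, a catalytic subunit of the proton pump, followed with -0.45, from 14.5 and 17.6 CPM in DZNep (4 and 0 Gy) and 20.0 and 17.8 CPM in DMSO. NEU1 had a difference of -0.42, with 11.1 and 9.13 CPM in DZNep and 10.5 and 6.41 CPM in DMSO. The highest was NPC1 at 0.30, with 44.4 and 35.7 CPM in DZNep and 29.8 and 29.6 CPM in DMSO, so that its level stood apart in DZNep 4 Gy. GABARAPL1 counts were 913 to 1322 per library, while its near-identical copy GABARAPL3 had 0 to 2 counts.

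The other genes of the same pathways were counted on a wider list of 120, of which 117 were tested. With DZNep, 13 rose (11.1%) and 11 fell (9.40%), shares near the 10.8% and 12.3% of all tested genes, and the median was -0.03 beside -0.02. With radiation, 3 rose (2.56%) beside 2.17% of all tested genes and none fell beside 0.897%. The median with radiation was 0.13 beside 0.01, and 67.5% of the list lay above 0, beside 50.8%. The largest rise with DZNep was MITF, another member of the TFEB and TFE3 family. MITF had 101 and 107 CPM in the DZNep libraries (0 and 4 Gy) and 31.1 and 49.9 CPM in the DMSO libraries. It rose 2.64-fold (log2 1.40, SE 0.18, edgeR adjusted p = 0.000185), beside TFEB at -0.50 and TFE3 at 0.08, which did not pass. ACP2, lysosomal acid phosphatase, had 101 and 121 CPM in DZNep and 41.7 and 45.1 CPM in DMSO, a rise of 2.54-fold (log2 1.34, SE 0.16, edgeR adjusted p = 9.31e-05). MAP1LC3A, an LC3 paralog, had 8.21 and 11.7 CPM in DZNep and 4.18 and 5.71 CPM in DMSO, and rose with an edgeR adjusted p of 0.00473. FOXO1, a transcription factor that can induce autophagy genes, rose by 0.99 on the log2 scale and ATG101, a partner of ULK1, by 0.86, with edgeR adjusted p-values of 0.00307 and 0.0109.

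Of the 11 falls on the wider list, 6 were hydrolases and 5 were not. GALNS, a sulfatase that degrades keratan sulfate, had 4.65 and 5.32 CPM in the DZNep libraries and 15.2 and 27.5 CPM in the DMSO libraries, a log2 fold change of -2.04 (SE 0.21, edgeR adjusted p = 4.48e-05). GAA, the glycogen-degrading acid alpha-glucosidase, had 35.2 and 59.9 CPM in DZNep (0 and 4 Gy) and 76.6 and 171 CPM in DMSO. It fell with the drug (log2 -1.32, SE 0.16, edgeR adjusted p = 0.000152) and rose with radiation (log2 0.96, SE 0.16, edgeR adjusted p = 0.00972). MAN2B1, lysosomal alpha-mannosidase, had the same directions, at -0.85 with DZNep (edgeR adjusted p = 0.00347) and 0.71 with radiation (edgeR adjusted p = 0.0435). IDUA, alpha-L-iduronidase, fell with DZNep by 1.21 and ATG2B, a lipid transfer protein of autophagosome formation, by 1.88 on the log2 scale. ARSA, arylsulfatase A, rose with radiation, with 59.8 and 86.2 CPM after 4 Gy (DZNep and DMSO) and 43.8 and 40.1 CPM without it (log2 0.78, SE 0.18, edgeR adjusted p = 0.0403). In models with 1 factor the DZNep calls on this list were 4 and the radiation calls 0.

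**Figure D5:**
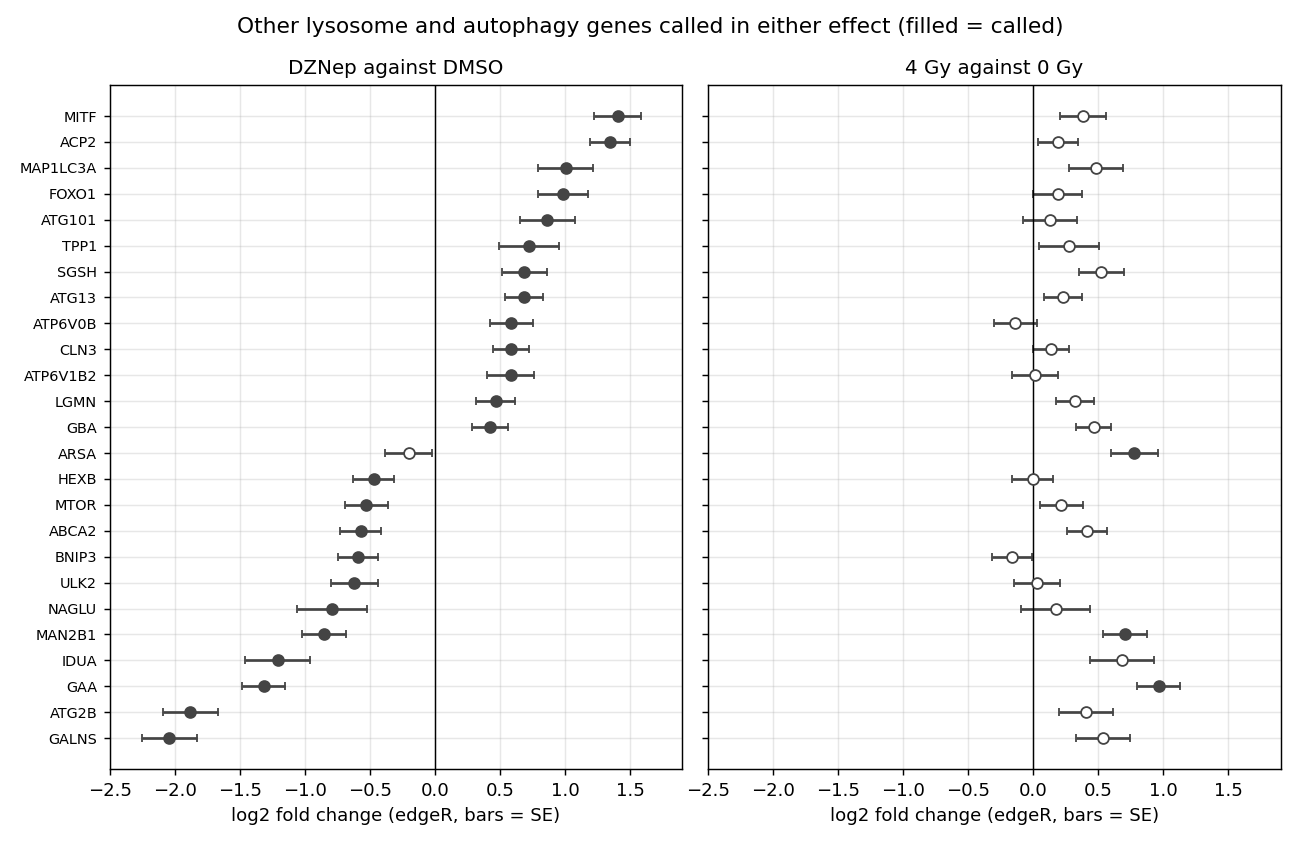
Log2 fold changes with DZNep (against DMSO) and with 4 Gy (against 0 Gy) for the genes of the wider list that passed an adjusted p of 0.05 in either effect, with bars of 1 SE and filled points for calls. MITF at 1.40 and ACP2 at 1.34 head the drug panel and GALNS at -2.04 closes it, while the radiation panel has 3 filled points, all above 0.

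Some members share exon bases with other genes, which matters where reads cannot be assigned. CTSD shared 62.0%, ATG9A 43.5%, SQSTM1 39.8%, CTSA 29.6%, WIPI1 28.5% and HEXA 27.0% of their exon bases with other annotated genes, on GENCODE annotation matched by symbol. CTSA overlaps PLTP, which had 30142 and 39066 counts in DZNep (0 and 4 Gy) and 39895 and 55372 in DMSO, against 55888, 60015, 44259 and 48562 for CTSA in the same order. MCOLN1 shared 8.41% with PNPLA6 and another gene on its own strand, and PNPLA6 had 8820 and 8829 counts in DZNep and 9790 and 8312 in DMSO, against 1525, 1484, 1019 and 923 for MCOLN1 in the same order. Values of these 7 genes and of BECN1 are uncertain to that extent. For CTSL, ULK1 and GRN no such overlap was annotated.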

How the data were processed

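RNA of NCI-H460 cells was sequenced from Lexogen SENSE mRNA libraries, 1 per group, per the labels' protocols. Each library has a table of raw counts by gene symbol, as the authors deposited it. The tools TopHat and edgeR and the build hg19 are named, per the submitters' processing notes; tool versions, annotation, counting program and strand setting were not given in the sources used here. Members and gene lists were chosen with earlier results of these data known.

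Counts were scaled by TMM (factors 0.979 to 1.01) in edgeR 4.0.16 (R 4.3.3). Genes reaching 1 CPM in 2 or more libraries went into the quasi-likelihood test, with drug and dose as additive factors. It had 1 residual and 11.5 prior degrees of freedom and Benjamini-Hochberg adjustment at 0.05. The common coefficient of variation, which edgeR calls biological, was 0.163. With 1 library per group it comes from the difference between the drug ratios at the 2 doses, and not from replicates. The steps were tested on simulated data. An SE is the absolute log2 fold change over the root of its F statistic. Ratios between 2 libraries used a prior count of 2. Depth was 112461380 to 136594350 counts, and 3 counts, the upper limit for a gene at 0, equal 0.0217 to 0.0267 CPM; intervals cover counting error only. Even values made up 55.9% to 58.1% of the counts from 1 to 59, so mates may have been counted separately, which would make the intervals too narrow. Exon length, GC content and overlaps came from GENCODE by symbol on another build than hg19, so no coordinates of the counted genes are given; promoters came from RefSeq on GRCh38.p14.

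All 29 members are accounted for. Full values are given for members past the threshold, the 3 highest and 3 lowest ratios of each pair and the largest interaction values, and from the wider list for up to 5 rises and 5 falls per effect at 10 CPM or more; other genes are named where a sentence sets them beside these. Alternatives were DESeq2 1.42.0, other scalings and filters, a model without the other factor, single pairs, a prior count of 0.5, the mean in place of the median, DRAM1 moved to the lysosome arm, the pump genes left out and, added after seeing the data, ratios centred within GC quartiles.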

Additional observations from a re-analysis of the deposited data

Results flagged for a closer look

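Some members had ratios of opposite sign in the 2 pairs that share a contrast, with both counting intervals clear of 0. With 1 library per group the difference was not tested in any of them, and the share of all tested genes with such signs was not counted. Under both contrasts this held for GABARAPL1, with a difference between the radiation ratios in DZNep and in DMSO of -0.95, and for LAMP2, with -0.25. For DZNep against DMSO at 4 Gy and at 0 Gy it held for CTSD, with ratios of -0.16 and 0.18 and a difference of -0.33, and for PSAP, with ratios of -0.09 and 0.03 and a difference of -0.12. For 4 Gy against 0 Gy in DZNep and in DMSO it held for ATP6V1A, with ratios of -0.28 and 0.17 and a difference of -0.45, and for BECN1, with ratios of -0.10 and 0.17 and a difference of -0.27. CTSL had radiation ratios of 0.07 in DZNep and -0.04 in DMSO, a difference of 0.11. Intervals of LAMP2 were barely clear of 0. They ended at -0.0060 for DZNep against DMSO at 4 Gy and at -0.0024 for 4 Gy against 0 Gy in DZNep. All these intervals may be too narrow, as mates may have been counted separately.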

How the results depend on the processing

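No paired analysis was possible because each group has 1 library and the labels carry no replicate numbers. Leaving out 1 library of the additive model leaves single pairs, which are values with no test. Of the 29 members, 5 were called with DZNep, 3 without a filter on low counts, 8 with a 10 CPM filter and 1 in a model without the other factor; the rises were 5, 3, 6 and 1. The falls were 0, but 1 with plain library size scaling (ATP6V1H, edgeR adjusted p = 0.0476). With the 10 CPM filter they were 2 (GLA and ATP6V1H, edgeR adjusted p = 0.0402 and 0.0358). Over all genes the DZNep rises and falls were 1446 and 1640 of 13378. They were 1309 and 1386 of 22114 without a filter, and 1220 and 1221 of 7997 with the 10 CPM filter. The model without the other factor called 721 genes with DZNep. With radiation 2 members were called, 1 without a filter, 4 with the 10 CPM filter and 0 without the other factor, where edgeR called 0 genes in all and 2 members had an unadjusted p under 0.05. Without a filter GRN (DZNep 0.0794, radiation 0.0607) and DRAM1 (0.0631) were lost. The 10 CPM filter added NPC1 with DZNep (0.0478) and CTSD (0.0270) and CTSZ (0.0216) with radiation, where fewer genes were tested. Over all genes that filter called 590 rises and 441 falls with radiation, of 7997. Without a filter the radiation rises and falls were 134 and 65 of 22114. On the wider list the DZNep calls were 24 and became 4 without the other factor, with 2 rises and 2 falls. The radiation calls were 3, with DESeq2 6 (5 rises, 1 fall), without a filter 1, with the 10 CPM filter 11 (10 rises, 1 fall) and without the other factor 0, and plain library size gave 1 fall. The radiation calls over all genes were 290 rises and 120 falls, and 351 and 266 with plain library size, which shifted the medians of the 2 effects by -0.02 and -0.03. The lysosome median minus the autophagy median was -0.05 for DZNep against DMSO at 4 Gy, and 0.057 with DRAM1 in the lysosome arm, 0.053 by means and 0.055 centred within GC quartiles. For 4 Gy against 0 Gy in DZNep it was 0.26, 0.046 by means and 0.15 centred within GC quartiles; in DMSO it was 0.08, and -0.054 by means. For the combination it was 0.31, -0.00058 by means and 0.20 centred within GC quartiles. Genes near 0 changed sign: CTSD with DZNep to -0.0077 (plain library size) and -0.017 (without the other factor), NPC2 with DZNep to 0.0099 (DESeq2 and RLE), 0.0028 (no filter) and 0.0037 (10 CPM filter), CTSL with radiation to -0.015 (plain library size) and BECN1 with radiation to -0.00056 (without the other factor). The causes were not tested.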

Other observations

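By class, the wider list differed in how its genes moved with radiation in the 2 agents. Of the 30 tested lysosomal hydrolases outside the 29 members, 17 lay above 0 for 4 Gy against 0 Gy in DZNep, beside 52.6% of all tested genes, with a median log2 ratio of 0.10. In DMSO 25 did so, beside 49.7%, with a median of 0.40. The 8 autophagy receptors had medians of 0.02 in DZNep and 0.31 in DMSO, and the 30 core autophagy genes 0.09 and 0.12. The 13 other proton pump subunits had medians of 0.04 and 0.11. With DZNep, 5 of the 30 hydrolases rose (16.7%) and 6 fell (20.0%), beside 10.8% and 12.3% of all tested genes. Of the 13 pump subunits 2 rose (15.4%), ATP6V0B and ATP6V1B2, a share near that 10.8%. The difference between the agents was not tested, since each ratio rests on 2 libraries.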
